A study of Mus musculus with 6 samples.

Results

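The retinoid receptor genes Rara, Rarb and Rarg (the retinoic acid receptors, RAR) and Rxra, Rxrb and Rxrg (the retinoid X receptors, RXR) were examined in mouse hearts at E13.5. The 6 genes were taken by name from the 46983 genes of the deposited tables, without use of their values, and all 6 had enough counts to be tested. RNA of whole hearts was sequenced from 3 mutant embryos (replicates 1, 5 and 10), which carried Tnnt2 Cre and floxed Wt1, and from 3 wild type embryos (replicates 2, 3 and 5). All embryos were of the C57BL/6 x DBA/2 strain, and each library came from 1 heart. The labels call the controls wild type, whereas the methods of the study describe them as embryos with floxed Wt1 and no Cre, so both groups would then share the floxed alleles. The Tnnt2 promoter drives Cre in the myocardium, and the study describes recombination in a fraction of the epicardium as well. Wt1 encodes a transcription factor of the epicardium, and the study reports it, at a low level, in some embryonic cardiomyocytes as well. The comparison asks how deletion of Wt1 in the troponin T lineage relates to the transcripts of the heart.

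Retinoic acid, made from vitamin A, acts through nuclear receptors that sit on DNA as pairs of an RAR with an RXR. Without ligand such pairs hold corepressors at their target genes, and with ligand they exchange them for coactivators. RXR proteins also pair with other nuclear receptors, such as thyroid hormone, vitamin D and PPAR receptors. In the embryonic heart the epicardium is a source of retinoic acid through the enzyme Aldh1a2, and RXR alpha is known for its need in the growth of the compact ventricular wall. Rarb is itself a textbook target of retinoic acid.

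Rarb was the receptor gene with a retinoic acid response element in its promoter window. In the RefSeq promoters of GRCm38.p6, which reach from 250 bases before to 50 bases after each start, the 6 genes had 13 windows of 300 bases. A DR5 element, the classical site of an RAR and RXR pair, was searched on both strands as a direct repeat, spaced by 5 bases, of a hexamer with A or G, then G, then G or T, then TCA. It was present in 32 of 32851 windows (0.0974%) and, among the receptor genes, in 1 window, that of Rarb at chr14:16575507-16575535 on the minus strand. The site began 53 bases before the start and lay in an exon, in untranslated sequence, of 2 annotated Rarb transcripts. The same search of the retinoic acid induced genes described further below, 17 of whose 29 members had windows, also found it in Cyp26a1, which encodes an enzyme that breaks down retinoic acid. There it lay at chr19:37697770-37697798 on the minus strand, opposite to the gene, from 32 bases before the start and outside any exon. The sites are shown side by side because Cyp26a1 is a well known target of the pathway. The repeat and its spacer are in capitals, with 6 flanking bases on either side in lower case.
Rarb: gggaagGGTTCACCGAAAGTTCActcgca
Cyp26a1: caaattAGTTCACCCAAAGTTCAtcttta
Of the 17 bases in capitals, 15 were identical, and the search pattern itself fixed part of them. No receptor window held the DR1 or DR2 repeat, spaced by 1 or 2 bases, found in 0.222% and 0.268% of all windows, or the sequences GCGTGGGAG and GCGGGGGCG, which are bound by WT1 and related zinc finger proteins, found in 0.472% and 2.91%. These matches describe letters in the windows, and binding was not measured.

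The libraries held between 44244665 and 56373393 counts per heart, the lowest being wild type replicate 5. The 8 cardiomyocyte markers were present in every heart, with a summed level between 10120 and 14770 CPM (counts scaled to the library size). Wild type replicate 5 stood apart, since its levels fell with gene length across 11784 genes (Spearman's rho of -0.56, against -0.06 to 0.46 in the other hearts). It also had a high summed level of 6 erythroid markers, 17190 CPM, as did mutant replicate 10, with 18430 CPM, against 3471 to 5222 CPM in the other hearts. Wild type replicate 3 had 758 CPM of hepatocyte markers, against 0.801 to 19.7 CPM elsewhere. The summed level of 7 macrophage markers was 79.5 to 91.4 CPM in wild type hearts and 121 to 134 CPM in mutant hearts, with 6 of 7 at an unadjusted p under 0.05 (0 adjusted) beside 5.73% of all genes tested. That of 7 fibroblast and cushion mesenchyme markers was 1506 to 2141 CPM in wild type and 2207 to 3284 CPM in mutant hearts, with 2 of 7 at an unadjusted p under 0.05, and that of 8 lung and foregut markers was 22.7 to 28.4 and 43.8 to 65.7 CPM, with 4 of these at 0 in some heart. The part of such cells in the differences below was not tested. The level of Wt1 itself, the targeted gene, was 39.95, 32.87 and 19.96 CPM in wild type replicates 2, 3 and 5 and 17.7, 33.3 and 35.7 CPM in mutant replicates 1, 5 and 10. The groups overlapped (log2 fold change of -0.10, SE 0.31, adjusted p of 0.990 by the quasi-likelihood test of edgeR with Benjamini-Hochberg adjustment), so the Wt1 count did not separate the labelled groups, and the sign turned when either wild type replicate 2 (0.13) or mutant replicate 1 (0.16) was left out. Such a gene count does not show whether the floxed exon was present. In whole hearts, fewer cells of a type and less RNA per cell cannot be told apart.

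The receptor genes differed widely in level, and the RXR family held both the most and the least abundant of them. Levels between genes are given per length, as FPKM (counts scaled to the length of the gene and the depth of the library), with the mean ± SD of all 6 hearts. Rxrb was highest, with 61.1 ± 6.66 FPKM, above 88.3% of the 17473 genes tested, and its hearts ranged from 56.2 in mutant replicate 5 to 74.4 in wild type replicate 5. Rxra, which encodes the RXR required for growth of the ventricular wall, followed with 39.9 ± 3.62 FPKM, above 82.0% of genes. Among the RAR genes Rara, the receptor most broadly expressed in tissues, had 23.6 ± 1.47 FPKM, above 72.1% of genes. Rarg had 18.1 ± 3.39 FPKM and Rarb 12.5 ± 0.956 FPKM, above 66.0% and 58.6% of genes. Rxrg, known mainly from skeletal muscle and brain, was near the bottom with 0.947 ± 0.342 FPKM, above 22.5% of genes, and its counts lay between 50 and 150 per heart.

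**Figure D1:**
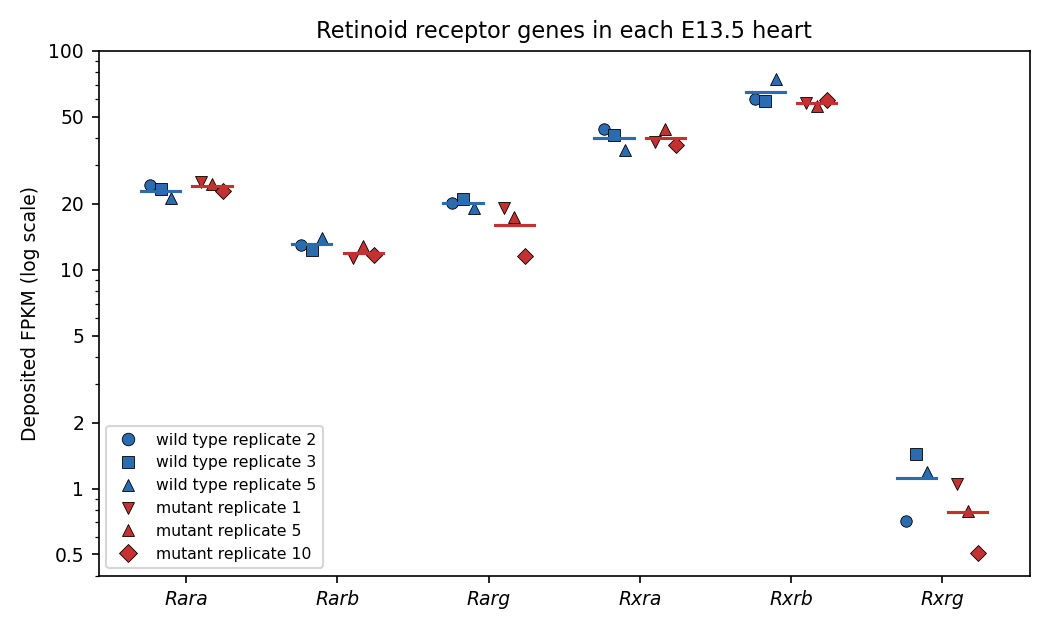
Level of each receptor gene in each heart (FPKM, log scale), with the wild type and mutant hearts as separate points and the mean of each group as a line. Rxrb and Rxra sit at the top and Rxrg lies about 14.0-fold below Rarb, while the groups differ little beside the distance between genes.

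Most neighbours in this order were separated in every heart. Rxrb was above Rxra in 6 of 6 hearts, by 0.61 ± 0.25 on the log2 scale (SD, n = 6), and Rxra was above Rara in 6 of 6, by 0.76 ± 0.095. Rara was above Rarg in 6 of 6, by 0.41 ± 0.31, with the largest distance, 0.98, in mutant replicate 10. Rarg and Rarb did not differ beyond their spread in every heart, since Rarg was higher in 5 of 6 and 0.01 lower on the log2 scale in mutant replicate 10. Rarb was above Rxrg in 6 of 6, by 3.81 ± 0.53.

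The order of Rarg and Rarb also depended on which length the counts were divided by. The deposited FPKM used a length of 1242 bases for Rarg, whose annotated exons cover 4261 bases, and of 3034 bases for Rarb, whose exons cover 5265 bases. Per kilobase of these exon bases (GENCODE M21), Rarb had 7.22 and Rarg 5.26 on the same scale, and Rarb was higher in 6 of 6 hearts. Per kilobase of the longest annotated transcript, Rarb was again higher in 6 of 6. The other genes kept their order on average under both lengths, but the distances between them moved. Rara exceeded Rarg by 1.19 on the log2 scale per exon base and by 1.02 per longest transcript, and Rxra exceeded Rara by 0.47 and 0.25. Rxrb exceeded Rxra by 0.23 and in 5 of 6 hearts when exon bases were used, and Rara exceeded Rarb in 5 of 6 hearts per longest transcript. The deposited length of Rarb, 3034 bases, exceeds the mean length of its annotated transcripts, 1506 bases, while for Rara both are 2180 bases. Levels per mean transcript length were not computed, so the order of Rara and Rarb is known only for the lengths used here.

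Rarb shares exon bases with a neighbouring gene, and the effect of this on its count was not tested. Exons of Top2b, which encodes a DNA topoisomerase, lie on the opposite strand across 34.1% of the exon bases of Rarb, and Top2b had 6867 to 14013 counts per heart against 1758 to 2186 for Rarb. Whether counting used the strand of the reads is not given in the sources used here. The exons of the other receptor genes were not overlapped by another annotated gene. The genes lie at chr11:98927818-98974942 (Rara, ENSMUSG00000037992), chr14:16430839-16819156 (Rarb, ENSMUSG00000017491) and chr15:102234938-102257517 (Rarg, ENSMUSG00000001288). Those of the RXR lie at chr2:27676440-27762957 (Rxra, ENSMUSG00000015846), chr17:34031812-34038399 (Rxrb, ENSMUSG00000039656) and chr1:167598384-167639623 (Rxrg, ENSMUSG00000015843), all in GRCm38.

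None of the receptor genes passed the threshold between mutant and wild type hearts. By the quasi-likelihood test of edgeR, 0 of 6 had an adjusted p under 0.05, as had 0 of all 17473 genes tested (0%), and 0 of 6 had an unadjusted p under 0.05, against 1002 of all genes (5.73%, with 3.14% higher and 2.59% lower in the mutant). DESeq2 gave 0 of 6 receptor genes beside 133 of 19282 genes (0.69%) with an adjusted p under 0.05. The values below are therefore sizes with their intervals, on CPM scaled by the TMM method. The groups did not overlap in 2 of 6 receptor genes, Rara and Rarg, against 11.2% of all genes tested.

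Rara lay slightly higher in the mutant. It had 52.3, 49.7 and 46.4 CPM in wild type replicates 2, 3 and 5 and 54.1, 53.3 and 52.6 CPM in mutant replicates 1, 5 and 10. All mutant hearts were above all wild type hearts, as in 6.61% of genes, but mutant replicate 10 was close to wild type replicate 2 and in FPKM the groups overlapped. The log2 fold change was 0.11 (SE 0.094, 95% interval -0.11 to 0.33, adjusted p of 0.985 by edgeR), with a range from 0.06 to 0.15 when each heart was left out. The interval reached from 0.927-fold to 1.25-fold.

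Rarg, the RAR of cartilage, skin and mesenchyme, was the RAR gene with the largest difference. Wild type replicates 2, 3 and 5 had 24.6, 25.6 and 23.8 CPM, and mutant replicates 1, 5 and 10 had 23.4, 21.5 and 15.2 CPM. All mutant hearts were below all wild type hearts, as in 4.59% of genes, but mutant replicate 1 was close to wild type replicate 5 and their order was the opposite in FPKM. The log2 fold change was -0.30 (SE 0.16, interval -0.67 to 0.07, adjusted p of 0.939 by edgeR). It rested in part on mutant replicate 10, without which it was -0.13, whereas without mutant replicate 1 it was -0.43 with an unadjusted p of 0.0408 and an adjusted p of 0.783 by edgeR. Mutant replicate 10 lay 0.54 below the mean of the hearts on the log2 scale for Rarg and was one of the hearts with high erythroid markers, while wild type replicate 5, the other such heart, lay 0.11 above it. The sum of the 7 fibroblast and cushion mesenchyme markers was higher in the mutant hearts. Single markers went both ways, with 4 higher and 3 lower. The part of red cells and of mesenchyme in the Rarg value was not tested.

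Rarb, the gene with the DR5 site, differed little between groups. It had 38.8, 36.6 and 42.7 CPM in wild type replicates 2, 3 and 5 and 33.8, 38.7 and 37.4 CPM in mutant replicates 1, 5 and 10. The groups overlapped, with the lowest value in mutant replicate 1 and the highest in wild type replicate 5. The log2 fold change was -0.10 (SE 0.11, interval -0.35 to 0.14, adjusted p of 0.985 by edgeR), and -0.04 without wild type replicate 5.

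Rxra had nearly equal means in both groups, 88.3 ± 9.08 CPM for wild type and 89.5 ± 6.71 CPM for mutant (SD, n = 3 each). The hearts had 96.6, 89.6 and 78.6 CPM in wild type replicates 2, 3 and 5 and 84.1, 97.0 and 87.4 CPM in mutant replicates 1, 5 and 10. The lowest value was that of wild type replicate 5, and the groups overlapped. The log2 fold change was 0.02 (SE 0.11, interval -0.24 to 0.28, adjusted p of 0.994 by edgeR), and its sign turned when wild type replicate 5 was left out, to -0.06.

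Rxrb, a broadly expressed RXR, had its largest deviation in a single heart. Wild type replicates 2, 3 and 5 had 74.1, 71.8 and 93.2 CPM, and mutant replicates 1, 5 and 10 had 70.3, 69.8 and 78.3 CPM. Wild type replicate 5 was far above the others, and the remaining values of both groups overlapped. The log2 fold change was -0.13 (SE 0.12, interval -0.42 to 0.16, adjusted p of 0.985 by edgeR), and without wild type replicate 5 it was -0.0037. This is the heart whose levels fell with gene length. The lengths behind the FPKM were 1247 bases for Rxrb and 1242 for Rarg, the shortest, and 1853 to 3034 for the others. In that heart Rxrb lay 0.30 above the mean of all hearts on the log2 scale and Rarg 0.11 above. Rara and Rxra lay at -0.15 and -0.17, Rarb, the longest, lay 0.17 above, and Rxrg, of 1853 bases, lay 0.42 above. With each heart's trend with gene length removed, the log2 fold change of Rxrb was -0.12, and -0.04 when that heart was also left out.

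Rxrg had 1.30, 2.61 and 2.23 CPM in wild type replicates 2, 3 and 5 and 1.90, 1.45 and 0.993 CPM in mutant replicates 1, 5 and 10. The highest value was that of wild type replicate 3 and the lowest that of mutant replicate 10, and the groups overlapped. The log2 fold change was -0.49 (SE 0.35, interval -1.30 to 0.32, adjusted p of 0.979 by edgeR). It ran from -0.74 without mutant replicate 1 to -0.27 without wild type replicate 3. At counts this low the interval was the widest of the 6, from 0.405-fold to 1.25-fold, whereas for the other receptor genes its lower bound was at or above 0.629-fold.

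**Figure D2:**
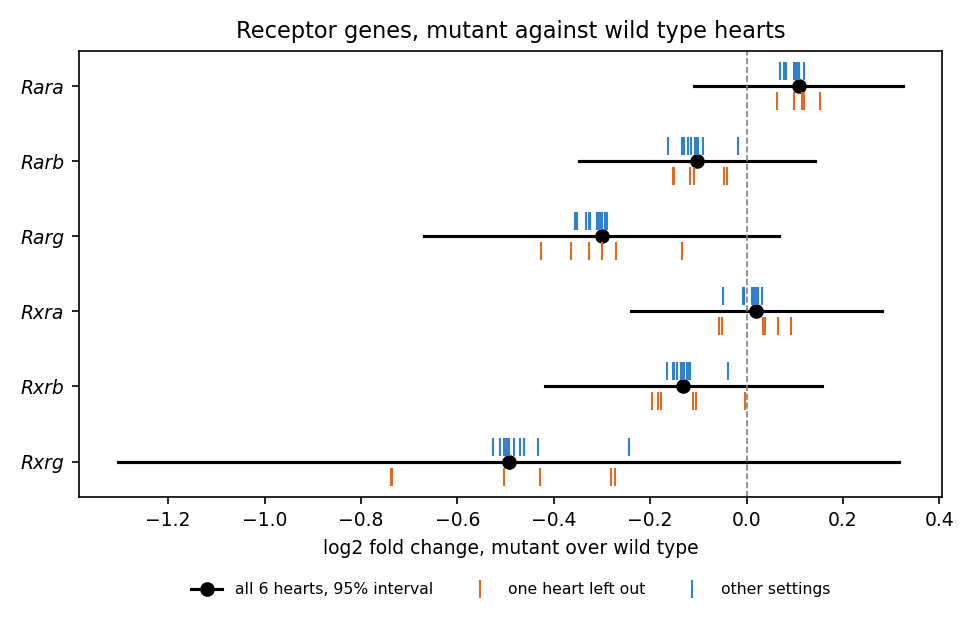
Log2 fold change of each receptor gene, mutant over wild type, from the quasi-likelihood test of edgeR on all 6 hearts (black points with the 95% interval), with each heart left out in turn (orange) and under the other settings (blue). Every interval includes 0, and that of Rxrg is the widest, from -1.30 to 0.32.

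The composition of the families does not depend on the depth of a library. It comes from the same counts, with their trend with gene length, and separation in other families was not computed. The shares also depend on the length used, that of Rarb averaging 23.2% with the deposited lengths and 35.0% per longest transcript. Rara made up 42.4, 41.1 and 39.1% of the summed RAR FPKM in wild type replicates 2, 3 and 5 and 45.3, 44.9 and 49.6% in mutant replicates 1, 5 and 10. All mutant hearts were above all wild type hearts, with means of 40.9 ± 1.69% and 46.6 ± 2.59% (SD, n = 3 each). The share of Rarg was 35.0, 37.1 and 35.1% in wild type and 34.4, 31.8 and 25.1% in mutant hearts, with means of 35.8 ± 1.18% and 30.4 ± 4.77%. All mutant hearts were below all wild type hearts, with mutant replicate 1 the nearest to them, and the groups overlapped when the longest transcript was used as the length. The difference for Rarg was -5.35 percentage points, and -2.70 without mutant replicate 10. Both shares come from the same sum, so a lower share of Rarg goes with a higher share of Rara. Rarb had 23.4 ± 2.15% in wild type and 23.0 ± 2.52% in mutant hearts, a difference of -0.354 percentage points that was 0.861 with wild type replicate 5 left out and 0.987 with mutant replicate 1 left out. With 3 hearts against 3 an exact two-sided permutation test cannot go below p = 0.1, and none was made.

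**Figure D3:**
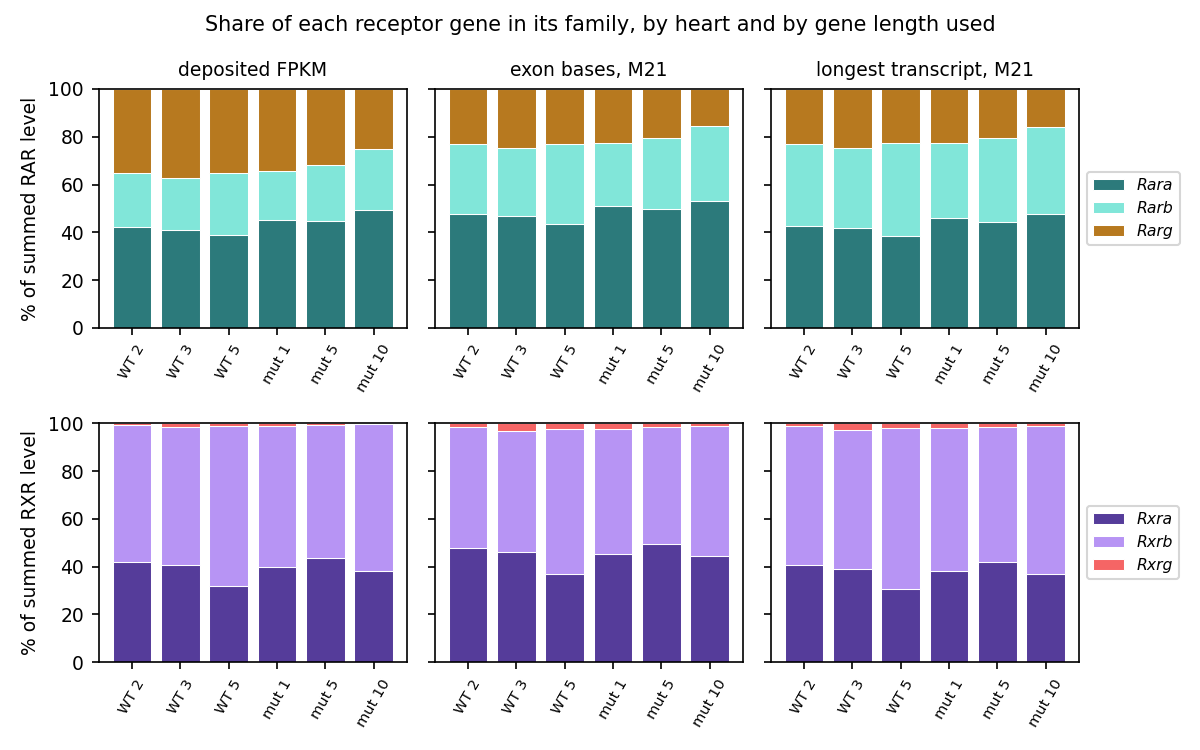
Share of each receptor gene in the summed FPKM of its family (percent) in each heart, for the RAR family and the RXR family. Rara takes 44.9 to 49.6% of the RAR sum in the mutant hearts and 39.1 to 42.4% in the wild type hearts, while the RXR shares of the groups overlap.

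In the RXR family the shares overlapped between the groups. Rxrb made up 60.9 ± 5.47% of the sum in wild type and 58.7 ± 2.75% in mutant hearts, and its highest share, 67.2%, was in wild type replicate 5. Rxra had 38.1 ± 5.52% and 40.5 ± 2.68%. Without that heart both directions turned, the difference of mutant minus wild type going from -2.15 to 1.01 percentage points for Rxrb and from 2.41 to -0.755 for Rxra. Rxrg had 1.06 ± 0.372% and 0.794 ± 0.279%. The sum of the RXR genes exceeded that of the RAR genes in every heart. Their ratio in FPKM was 1.89 ± 0.135 in wild type and 1.90 ± 0.190 in mutant hearts.

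Across the 6 hearts, genes with a pattern like that of a receptor were ranked by Pearson's r of log2 CPM with it, among 11783 other genes with a mean log2 CPM over 2 (11784 for Rxrg). Rarg was closest to Pcdh18 (r of 0.997), a protocadherin, then Dnm1 and Rgs6, and 78 genes had r over 0.9. Rara was closest to Kank1 (0.990), Zfp148 and Map3k2, with 285 such genes, and Rarb to Thap1 (0.987), Tspan5 and Kdelc1, with 39. Rxra was closest to the predicted gene Gm7964 (0.995), Klhl18 and Pkp4, with 443, and Rxrb to Mtg1 (0.997), the predicted gene Gm4459 and Cdca3, with 365. Rxrg was closest to Scx (0.976), a transcription factor of tendon and valve cells, then B3gnt5 and Pid1, with 39. Between receptor genes, the pairs with the highest r were Rarb with Rxrb and Rarg with Rxrg (both 0.77), and those with the lowest were Rara with Rxrb (-0.83), Rara with Rarb (-0.72) and Rxra with Rxrb (-0.71). The points share their library, its depth and its trend with gene length, so these values describe 6 hearts. With so few points an r over 0.9 can arise between unrelated genes, and no chance level was computed for these counts.

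The other genes of the pathway were read from lists that may share members. In the supply and breakdown of retinoids 22 of 26 genes were tested, of which 8 had a higher and 14 a lower mean in mutant hearts. The median of their log2 fold changes was -0.13, against -0.00099 over all genes. None had an adjusted p under 0.05 by edgeR, and 6 had an unadjusted p under 0.05 (27.3% of those tested, against 5.73% of all genes), 2 of them higher and 4 lower in the mutant. Aldh1a1, a retinaldehyde dehydrogenase that makes retinoic acid, had 439, 416 and 164 counts in wild type and 684, 522 and 784 counts in mutant hearts. The groups did not overlap, with a log2 fold change of 1.04 (SE 0.28, adjusted p of 0.578 by edgeR and 0.0400 by DESeq2). Dhrs3, which turns retinaldehyde back into retinol, had 715, 749 and 650 counts in wild type and 494, 495 and 552 counts in mutant hearts (log2 fold change of -0.44, SE 0.13, adjusted p of 0.638 by edgeR). Dhrs9, a retinol dehydrogenase, was near the limit of detection, with 2 to 8 counts in wild type and 16 to 42 in mutant hearts.

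The carriers Ttr and Rbp4 were set by a single heart. Ttr, a carrier of thyroid hormone and retinol in blood, had 903 counts in wild type replicate 3, the heart with hepatocyte markers, and 13 to 55 in the others. Its log2 fold change was -3.18 with all hearts and -0.05 without that heart. Rbp4, the retinol carrier of plasma, had 1486 counts in the same heart and 28 to 70 in the others. Lrat, which stores retinol as an ester, had 22 to 37 counts in wild type and 5 to 16 in mutant hearts. Rbp4 and Lrat are named because they complete the 6 genes, after their values were seen.

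The main enzymes that set retinoic acid levels in the embryonic heart did not pass either threshold. Aldh1a2, the epicardial enzyme of retinoic acid synthesis, had 45.5 ± 18.5 CPM in the wild type group and 37.9 ± 13.4 in the mutant group, which overlapped (log2 fold change of -0.26, SE 0.36). Single hearts set this value, which was -0.000965 with mutant replicate 1 left out, -0.0062 with wild type replicate 2 left out and -0.56 with wild type replicate 5 left out. The sum of 9 epicardial markers, Aldh1a2 and Wt1 among them, ranged from 284 to 522 CPM in wild type and from 297 to 525 CPM in mutant hearts. Single markers went both ways, with 5 higher and 4 lower in the mutant. An unadjusted p under 0.05 by edgeR was reached by 3 of 9 (0 adjusted), beside 5.73% of all genes tested. Cyp26a1, with the other DR5 site, had 34, 40 and 37 counts in wild type and 31, 23 and 6 counts in mutant hearts (log2 fold change of -0.88, SE 0.53, adjusted p of 0.957 by edgeR). Its log2 fold change was -0.46 without mutant replicate 10 and -1.34 without mutant replicate 1. Cyp26b1 had 10.5 ± 2.46 and 10.6 ± 3.32 CPM, and Cyp26c1 had 0 to 4 counts and was not tested.

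Of the corepressors and coactivators, which the receptors recruit to chromatin, all 18 were tested, and 14 were higher and 4 lower in the mutant. Their log2 fold changes lay between -0.19 and 0.19, with a median of 0.09 that turned to -0.10 without wild type replicate 5. None had an unadjusted p under 0.05. The groups did not overlap in 2 of 18, which is 11.1% beside 11.2% of all genes and so near the background. These were Gps2, a subunit of a corepressor complex (log2 fold change of -0.19), and Kat2b, a histone acetyltransferase (0.19). Med1, a coactivator of the Mediator complex, and Ncor1, a corepressor, had log2 fold changes of 0.17 and 0.15, which were 0.06 and -0.08 without wild type replicate 5.

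Of 13 other nuclear receptors that pair with RXR, 11 were tested, with 5 higher, 6 lower and a median of -0.01. Again 0 passed the adjusted threshold of edgeR, and 2 had an unadjusted p under 0.05 (18.2% of those tested, against 5.73% of all genes). Nr4a1, an immediate early orphan receptor, had a mean of 17.5 ± 0.524 CPM in wild type hearts against 21.6 ± 0.828 in mutant hearts, with no overlap (log2 fold change of 0.31, SE 0.097, adjusted p of 0.689 by edgeR). Nr1h4, the bile acid receptor, had 71, 100 and 62 counts in wild type and 21, 43 and 24 in mutant hearts (log2 fold change of -1.37, SE 0.35, adjusted p of 0.518 by edgeR). Ppara and Thrb had log2 fold changes of 0.30 and -0.39, and that of Thrb ran from -0.81 without mutant replicate 1 to -0.12 without wild type replicate 3.

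Textbook retinoic acid induced genes lay mostly lower in the mutant. Of 29 listed, 25 were tested, 5 with a higher and 20 with a lower mean. Over all genes tested, the log2 fold change was above 0 in 8699 and below 0 in 8774. The median log2 fold change of the 25 was -0.34. This median ranged from -0.39 to -0.14 over the other settings, and from -0.29 to -0.18 with each heart left out. It was nearest to 0, at -0.14, in fits that dropped members of low level, such as that with a CPM over 1 in 3 hearts. None of the 25 passed the adjusted threshold of edgeR, and 3 had an unadjusted p under 0.05 (12% of those tested, against 5.73% of all genes). All 3 were lower in the mutant, as were 2.59% of all genes at that threshold. Nr2f1, a COUP transcription factor, had 2255, 1556 and 1660 counts in wild type and 1257, 670 and 778 counts in mutant hearts. The groups did not overlap, with a log2 fold change of -0.999 (SE 0.25, adjusted p of 0.456 by edgeR and 0.0114 by DESeq2). Its relative Nr2f2 had a mean of 49.9 ± 3.85 CPM in wild type hearts against 39.2 ± 4.60 in mutant hearts (log2 fold change of -0.35, SE 0.12, adjusted p of 0.762 by edgeR). Dhrs3, also on this list, was the other of the 3. Crabp2, a carrier of retinoic acid into the nucleus, had a log2 fold change of -0.83 (SE 0.36), with 554 counts in wild type replicate 3 against 137 to 244 in the other hearts, and without that heart it was -0.35. Rarb, a member of this list, was among the 20 lower genes at -0.10.

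**Figure D4:**
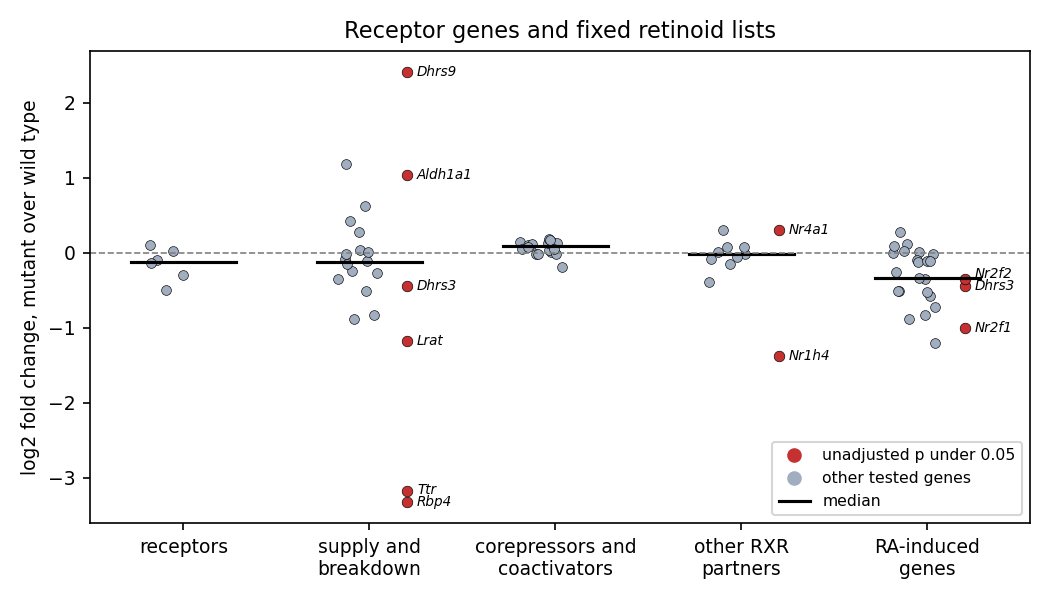
Log2 fold change, mutant over wild type, of every tested member of the receptor genes and of the 4 lists of retinoid genes (edgeR, 6 hearts), with a line at the median of each and red points for an unadjusted p under 0.05. No receptor gene is red, and the retinoic acid induced genes have the lowest median, -0.34 (-0.14 in the fit of genes with a CPM over 1 in 3 hearts).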

How the data were processed

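RNA of 6 whole hearts was sequenced as paired reads from TruSeq libraries. According to the methods of the study, the authors aligned trimmed reads to mm10 with STAR and assigned uniquely mapped reads to genes with featureCounts, while the submitters' processing notes name HTSeq and DESeq2. The strand setting is not given in the sources used here. The authors deposited a raw count per gene and heart. They also deposited FPKM values, which equal the count scaled by 1 length for each gene and by library total (largest relative deviation 7.1e-14). For 71.5% of 26680 genes, and for 3 of the 6 receptor genes, this length equals the mean length of the GENCODE M21 transcripts within 0.5 bases. The tables list 46983 genes, 26831 with a count in any heart, and 0 columns could not be assigned to a heart. A table of group means was not used. Groups were taken from the labels, and the p-values measure the spread between separate embryos.

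Counts were tested with the quasi-likelihood test of edgeR 4.0.16 (R 4.3.3, two-sided, TMM normalization, genes kept at 10 counts or more in enough hearts and 15 in all, no covariate), and p-values were adjusted over all 17473 genes by Benjamini-Hochberg with a threshold of 0.05. The test was also run on simulated counts with some genes changed by known folds. These counts lacked the trend with gene length and the marker differences between hearts, so the run does not cover them. Each gene's SE is its log2 fold change divided by the square root of F. Alternatives were DESeq2 1.42.0, limma 3.58.1 (voom on counts, and trend fits on log2 of FPKM plus 1 or 0.1 for genes over 0.5 FPKM in 3 hearts), other size factors, no filter or a CPM over 1 in 3 hearts, a robust fit, removal of the trend with gene length in each heart (local regression, span 0.5), and each heart left out. Levels were also computed per exon length, and per longest transcript, which was added after seeing the data. Promoters were those of RefSeq. Named genes were the receptor genes, Wt1, the 4 members of each list with the smallest unadjusted p, Aldh1a2, Cyp26a1, Cyp26b1 and Cyp26c1, and the 3 genes most correlated with each receptor gene. The members, lists and tests were chosen with earlier results of these data known.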

Additional observations from a re-analysis of the deposited data

How the results depend on the processing

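No receptor gene had an adjusted p under 0.05 in any of 17 alternatives. Of these, 12 called 0 of all genes, so only the other 5, with 6 to 133 genes called, could have differed. The sign of the log2 fold change was kept in all 17 for Rara, Rarb, Rarg, Rxrb and Rxrg. Leaving out 1 heart at a time gave ranges of 0.06 to 0.15 for Rara, -0.15 to -0.04 for Rarb, -0.43 to -0.13 for Rarg, -0.056 to 0.093 for Rxra, -0.20 to -0.0037 for Rxrb and -0.74 to -0.27 for Rxrg. The sign of Rxra reversed in 7 settings, at -0.0060 and -0.0061 on log2 of FPKM plus 1 and plus 0.1, -0.0047 with upper quartile factors, -0.0067 with the gene length correction, -0.050 with that correction and without wild type replicate 5, and, with 1 heart left out, -0.056 (wild type replicate 5) and -0.050 (mutant replicate 5). The level of Rarg over Rarb reversed to -0.48 per exon length and -0.71 per longest transcript. The median of the corepressors and coactivators reversed to -0.099 without wild type replicate 5 (-0.099 to 0.226 over the left-out hearts), and to -0.071 with the gene length correction as well. Over all genes, the count with an adjusted p under 0.05 was 133 by DESeq2, 34 without a filter, 6 with the gene length correction, 41 with that correction and without wild type replicate 5, and 0 to 44 with 1 heart left out (44 without wild type replicate 5). DESeq2 called 1 gene of retinoid supply (Aldh1a1) and 1 retinoic acid induced gene (Nr2f1). The cause of these changes was not tested. No paired analysis was made, since the labels give no litter or pairing of embryos, and the replicate number 5 in both groups does not mark one. With 3 hearts a group, receptor genes with an SE near 0.1 were bounded more closely than Rxrg, with an SE of 0.35 at 50 to 150 counts.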
